A study of Mus musculus with 33 samples.

Results

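The net change of the transcriptome was measured between the start and the end of a differentiation of mouse embryonic stem cells, by RNA sequencing of 6 of the 33 libraries of the series. The 3 libraries of the start were paraxial mesoderm (PM) collected on day 6 of the protocol (D6 PM), and the 3 libraries of the end were cells collected on D10 after 4 days of induction with AGN (D10 AGN), which the study calls the fibrocartilage condition. The labels count these days from the start of induction, as day 0 and day 4. The libraries of a group were biological replicates by the study's description. The 6 libraries were chosen by their labels alone, and all 17120 genes of the count table entered the comparison. The stem cells carried a ScxGFP reporter, in which green fluorescent protein marks expression of the tendon transcription factor Scx, and which stem cell line gave which library is not stated. They were grown as embryoid bodies in serum-free medium with LDN-193189, an inhibitor of BMP receptors, and then with LDN-193189 and CHIR, an activator of Wnt signalling. The D6 PM libraries came from such embryoid bodies, with no induction medium. From D6 the cells were plated as a monolayer in TGFβ1, FGF2 and SAG, an agonist of the hedgehog receptor component smoothened, together with AGN 193109, a ligand that locks the receptors of retinoic acid in their repressing state (an inverse agonist). A second arm received CD1530, an agonist of retinoic acid receptor gamma, in place of AGN 193109 and ended on D10 in 3 libraries (D10 CD1530). Plating, 4 days of time, the medium factors and the retinoid ligand all separate D10 AGN from D6 PM and cannot be told apart in this comparison. In the retinoid protocol of the study AGN 193109 was already given during PM formation, and the labels do not say whether the D6 PM libraries had received it. The cultures were not sorted, so fewer cells of a type and less RNA per cell cannot be told apart in any value below.

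The 6 libraries held 17725489 to 21154369 counts, and replicates of a group correlated across genes at 0.9972 or more (Pearson, log2(CPM + 1)). Levels are given as CPM, counts scaled to a common library total, after TMM scaling, which corrects that total for its composition. The factors were 1.001 to 1.01 in D6 PM and 0.902 to 0.912 in D10 AGN. The 50 most counted genes took 11.3% to 11.8% of counts in D6 PM and 13.1% to 13.4% in D10 AGN. Mitochondrially encoded genes took 1.08% to 1.62% and 0.84% to 0.924%. The labelled starting tissue was checked against its markers on a scale per exon length. Pou5f1, a core pluripotency factor, stood at 312 CPM per kb of exon in D6 PM, whereas Tbx6 and Msgn1, which define presomitic mesoderm, stood at 5.3 and 5.52, and T (brachyury), a marker of primitive streak and tailbud, at 34.1. The markers of paraxial mesoderm were therefore present but low beside those of pluripotent cells, and "PM" is used below as the name of the collected sample. At the other end, Scx reached 609 and Col2a1, the main collagen of cartilage, 270.2 CPM per kb, so that defining markers of tendon and of cartilage were both present in D10 AGN.

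Paraxial mesoderm is the tissue beside the neural tube that segments into somites. The ventral part of a somite, the sclerotome, gives rise to cartilage and bone of the axial skeleton, and its border gives rise to tendon progenitors that express Scx. Cells that co-express Scx and Sox9 form the attachments of tendon to bone, in which fibrocartilage holds both fibrillar collagen I and the cartilage matrix of collagen II and aggrecan. Hedgehog and TGF-beta signals favour sclerotome and tendon fates, while retinoic acid, made by Aldh1a2 and degraded by Cyp26 enzymes, sets axial Hox gene expression and opposes cartilage differentiation. Without an agonist, retinoic acid receptors bound to their response elements recruit corepressors, and an inverse agonist strengthens this state.

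The promoters of Cyp26a1 and Rarb are shown because both genes are well known retinoid targets and hold a match to the retinoic acid response element, the kind of sequence that the receptors of these ligands bind. A direct repeat of the receptor core site spaced by 5 bases, GTTCANNNNNAGTTCA on either strand, was searched in RefSeq promoters of GRCm38.p6 that run from 250 bases before to 50 bases after each gene start. It was found in 11 of 32851 promoters, or 0.0335%, and no overlap with another motif was considered. The pattern fixes the letters of both core sites, and sites with other letters or spacing were not searched. The percentage is therefore that of this exact pattern and not of response elements in general. The upstream stretch with the match is printed in the gene's own 5′ to 3′ direction, in lower case with the matching 16 bases in capitals. For Cyp26a1, which encodes the enzyme that clears retinoic acid, the stretch lies at chr19:37697736-37697807 on the plus strand with the match on the minus strand, from base -32 to base -17 counted from the gene start. For Rarb, which encodes retinoic acid receptor beta, it lies at chr14:16575477-16575568 on the minus strand, with the match from base -52 to base -37.
Cyp26a1: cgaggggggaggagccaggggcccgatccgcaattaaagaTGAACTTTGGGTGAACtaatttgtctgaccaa
Rarb: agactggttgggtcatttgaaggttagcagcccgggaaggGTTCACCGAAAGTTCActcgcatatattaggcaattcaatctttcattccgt
Of the 11 genes with a match, 4 were in the count table. Cyp26a1 and Rarb were both higher in D10 AGN than in D6 PM, from 0.399 ± 0.18 to 2.45 ± 0.263 CPM (SD, n = 3) and from 0.0636 ± 0.0732 to 1.12 ± 0.488 CPM, at least 7.55-fold for Rarb, which had at most 3 counts in each D6 PM library. Both stayed far below D10 CD1530, where they reached 169 ± 5.76 and 56.2 ± 3.57 CPM. The other two, Blvrb and Lcorl, had log2 fold changes of -0.28 ± 0.07 and 0.85 ± 0.11 between D10 AGN and D6 PM. A match describes letters in this window and not occupancy by a receptor.

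The question of the comparison was how far the cells moved in all from PM to the AGN end point. With edgeR's quasi-likelihood F test and Benjamini-Hochberg adjustment over 17120 genes, 14038 genes (82.0%) passed an adjusted p of 0.05, 7115 higher (41.6%) and 6923 lower (40.4%) in D10 AGN. So large a share makes the test alone a weak description, and the size of the change is used beside it. Genes that passed and differed by at least 2-fold numbered 6669 (39.0%), 3986 higher (23.3%) and 2683 lower (15.7%). At least 8-fold, 1009 were higher (5.89%) and 360 lower (2.10%). The 3 libraries of one group lay wholly on one side of the 3 libraries of the other in 14249 genes (83.2%). Over all genes the log2 fold change had a median of 0 and quartiles of -0.70 and 0.93. Scaling by library size alone lowered the median by 0.15 and moved the share of higher calls from 50.7% to 44.6%. It gave 3543 higher and 3395 lower genes at 2-fold, so that the excess of higher genes among large changes depended on the scaling. Of the genes, 3082 (18.0%) did not pass, and 132 of those had an unadjusted p under 0.05. The gene lists below are read against these percentages, with counts of members that changed at least 2-fold and the list median.

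**Figure D1:**
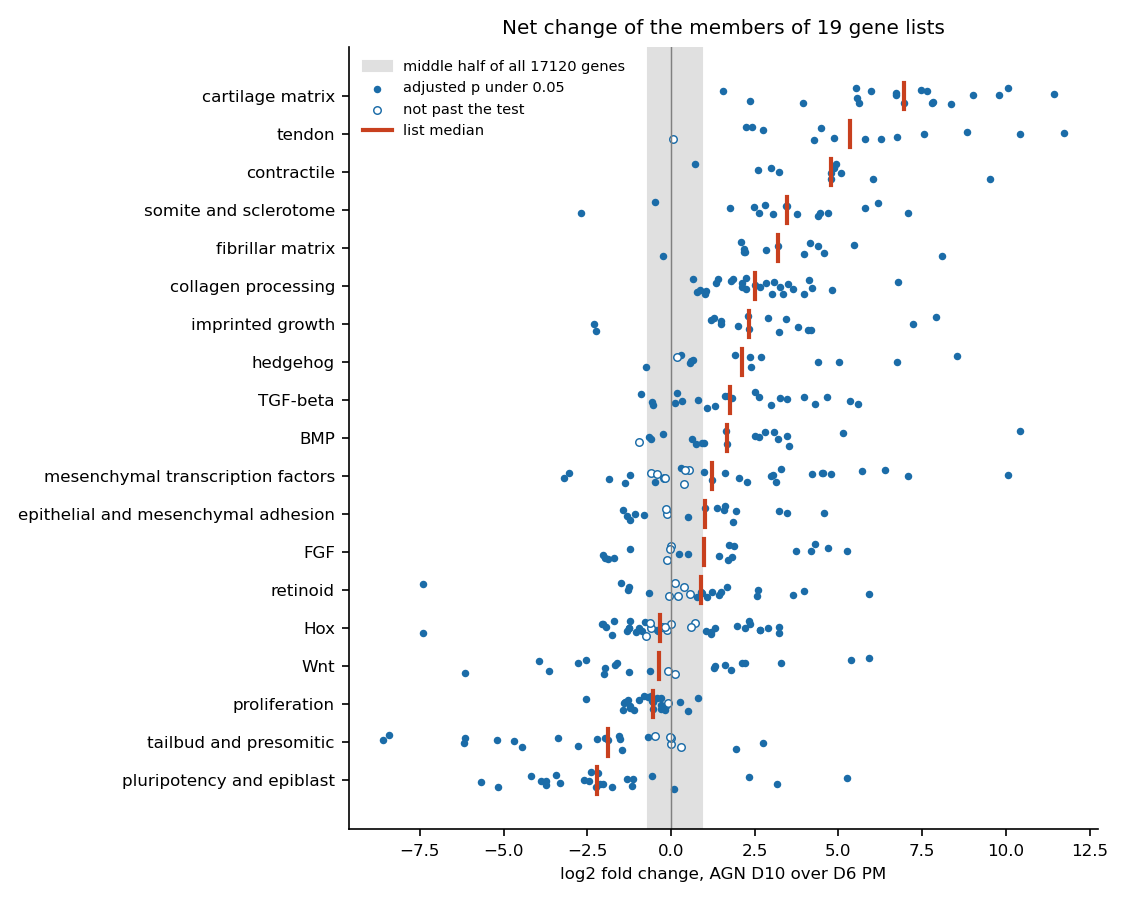
Log2 fold change of D10 AGN over D6 PM for the members of 19 gene lists. Each point is 1 gene, filled where the adjusted p was under 0.05, the red bar is the list median, and the grey band runs between the quartiles of all 17120 genes (-0.70 to 0.93). The cartilage matrix median (6.95) lies farthest to the right and the pluripotency and epiblast median (-2.21) farthest to the left.

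Cartilage matrix genes rose with the highest median of the lists examined. All 19 analysed members rose at least 2-fold and 17 at least 8-fold, with a median log2 fold change of 6.95, or 5.96 when the 6 members at the counting floor in D6 PM (at most 3 counts in each library) are set to their lower bounds. Their summed level was 130.7 to 151.5 CPM in the D6 PM libraries and 6479.8 to 6821 CPM in the D10 AGN libraries. Col2a1 (chr15:97975602-98004695, minus strand, GRCm38) encodes the fibril-forming collagen of cartilage. It was counted at 11.2, 11.2 and 10.5 CPM in D6 PM and at 2545, 2529 and 2418 CPM in D10 AGN. Its groups lay 227-fold apart with no overlap, a log2 fold change of 7.83 ± 0.06 (SE, n = 3 a group, adjusted p = 9.7e-50, edgeR). Acan (chr7:79053483-79115099) encodes aggrecan, the large proteoglycan that holds water in cartilage. It stood at 1.05, 1.09 and 1.08 CPM in D6 PM and 203, 227 and 216 CPM in D10 AGN (log2 fold change 7.64 ± 0.11, adjusted p = 1.5e-40, edgeR). The chains of collagen IX, which coats collagen II fibrils, rose together, with log2 fold changes of 6.95 for Col9a1, 5.96 for Col9a2 and 8.36 for Col9a3. Collagen XI, the minor chain within those fibrils, rose by 7.79 (Col11a1) and 5.51 (Col11a2). Chad, a leucine-rich protein that binds chondrocytes to matrix, had at most 3 counts in each D6 PM library and 111, 110.3 and 102 CPM in D10 AGN, at least 723-fold higher. Clec3a, a cartilage lectin, and Cytl1, a cytokine-like protein of chondrocytes, had no count in any D6 PM library. They reached 17, 15.5 and 17.6 CPM and 5.75, 5.54 and 8.26 CPM in D10 AGN, at least 112-fold and at least 43.8-fold higher. Matn4, a matrilin of the pericellular matrix, rose from 0.784 ± 0.178 to 142 ± 0.855 CPM, Hapln1, which links aggrecan to hyaluronan, from 0.808 ± 0.411 to 38.9 ± 0.891 CPM, and Epyc, a small proteoglycan, by at least 136-fold. Levels were not high for every member. Cnmd (chondromodulin, a glycoprotein of avascular cartilage) reached 3.38, 4.88 and 4.04 CPM, Ucma 7.53 ± 0.575 CPM, and Comp, an oligomeric matrix protein of cartilage and tendon, moved only from 1.9 ± 0.38 to 5.59 ± 1.04 CPM. Prg4, which encodes the joint lubricant lubricin, rose from 0.359 ± 0.14 to 18.1 ± 1.78 CPM.

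Genes of hypertrophic cartilage and bone did not follow one direction. Of 11 analysed members 5 rose and 3 fell at least 2-fold, against 23.3% and 15.7% of all genes. Col10a1, the collagen of hypertrophic chondrocytes, had no count in D6 PM and 1.38, 1.57 and 1.49 CPM in D10 AGN, a low level. Runx2, the transcription factor of hypertrophy and osteoblasts, rose from 4.08 ± 0.657 to 42.3 ± 0.855 CPM, and its osteoblast successor Sp7 from 0.248 ± 0.0954 to 3.99 ± 0.329 CPM. Dmp1, a mineral-binding matrix protein, rose at least 81.1-fold to 12.1 ± 2.33 CPM. Alpl, which encodes tissue-nonspecific alkaline phosphatase, present in stem cells as well as in bone, stood at 419.6, 434 and 403 CPM in D6 PM and fell to 10.6, 12.9 and 13 CPM, a log2 fold change of -5.10 ± 0.05 (adjusted p = 6.7e-45, edgeR). Mmp13, a collagenase of late cartilage, fell by 2.18 on the log2 scale, and Ibsp, an osteoblast sialoprotein, had a log2 fold change of 0.08 ± 0.14 that did not pass (adjusted p = 0.62, edgeR).

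Tendon genes rose with those of cartilage. Of 14 analysed members 13 rose at least 2-fold and 10 at least 8-fold, with a median log2 fold change of 5.33 (at least 2-fold higher, 23.3% of all genes), and their sum went from 837.4 to 943.9 CPM in D6 PM to between 17633 and 18491 CPM in D10 AGN. Fmod (chr1:134037254-134048277) encodes fibromodulin, which regulates the thickness of collagen fibrils. It had 1.2, 0.472 and 0.108 CPM in D6 PM and 2192, 2078 and 1991 CPM in D10 AGN, and its log2 fold change of 11.73 ± 0.12 (adjusted p = 7.7e-37, edgeR) was the largest rise among well counted genes (50 counts or more on average) whose groups did not overlap. Scx (chr15:76457452-76459458), the basic helix-loop-helix factor of tendon progenitors, stood at 7.18, 6.56 and 5.49 CPM in D6 PM and 1249.9, 1194 and 1225 CPM in D10 AGN (log2 fold change 7.57 ± 0.06, adjusted p = 9.7e-50, edgeR). Thbs4, a thrombospondin of tendon matrix, rose from 0.488 ± 0.143 to 692 ± 24.4 CPM, and Postn, a matricellular protein, from 86.3 ± 3.53 to 6680.2 ± 205 CPM. Mkx, a homeobox factor of tendon maturation, rose by 4.87, Col14a1 by 6.75, Lum by 5.80 and Dcn by 2.42 on the log2 scale. Tnmd (tenomodulin), a marker of differentiated tendon cells, had 1 count over the 3 D6 PM libraries and 10.9, 10.7 and 9.56 CPM in D10 AGN, at least 69.7-fold higher but low in absolute level. Egr1, an immediate early factor that induces tendon collagen, was the exception, with 98.9, 115 and 125 CPM against 120.3, 118 and 113 CPM and overlapping groups (log2 fold change 0.05 ± 0.05, adjusted p = 0.32, edgeR).

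The collagen I and elastic fibre matrix and the machinery that makes it rose as well. Of 13 fibrillar matrix genes 12 rose at least 2-fold, and Col5a3 alone fell, by a small amount (log2 fold change -0.25 ± 0.11, adjusted p = 0.044, edgeR) that did not pass when any of 4 of the 6 libraries was left out. Col1a1, the main chain of tendon and bone collagen, stood at 1383, 1316 and 1061 CPM in D6 PM and 11724, 11898 and 10926 CPM in D10 AGN (log2 fold change 3.20 ± 0.11). Col3a1 rose by 3.98, Col5a2 by 4.39, and fibrillins Fbn1 and Fbn2, the scaffold of elastic fibres, by 4.56 and 5.48. Eln, which encodes elastin itself, had 2.73, 1.79 and 2.42 CPM in D6 PM and 653, 626 and 617 CPM in D10 AGN, a log2 fold change of 8.09 ± 0.08. Every one of the 27 collagen processing genes rose, 24 of them at least 2-fold. They include the prolyl 3- and 4-hydroxylases (P4ha1 1.80, P4ha2 3.49, P4ha3 6.79 and P3h1 2.50 on the log2 scale) and the lysyl hydroxylases Plod1, Plod2 and Plod3 (2.24, 3.34 and 2.11). Serpinh1, the collagen chaperone HSP47, rose from 452 ± 12.2 to 3224 ± 32.7 CPM. The lysyl oxidases that cross-link collagen and elastin rose by 4.13 (Lox), 4.81 (Loxl1), 3.03 (Loxl2), 4.21 (Loxl3) and 3.64 (Loxl4). The smallest changes were those of the procollagen N-proteinases Adamts2 (0.67 ± 0.13) and Adamts14 (0.77 ± 0.09) and of Crtap (0.85 ± 0.04), a partner of P3h1. Among symbol families picked after their values were seen, 34 of 40 collagen chains, 16 of 18 Adamts proteases and 44 of 46 protocadherins rose at least 2-fold, with medians of 3.21, 3.29 and 3.15. Clustered protocadherins share exons, so that counts of single members are uncertain.

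Transcription factors of sclerotome and mesenchyme accompanied the matrix genes. Of 16 somite and sclerotome genes 14 rose at least 2-fold (median 3.45). Sox9, the master factor of chondrogenesis, went from 7.08, 6.71 and 5.76 CPM in D6 PM to 151, 144 and 133 CPM in D10 AGN (log2 fold change 4.45 ± 0.07, adjusted p = 5.8e-40, edgeR). Its partners Sox5 and Sox6 rose by 3.77 and 3.44. Pax1 and Pax9, paired box factors of the ventral sclerotome, rose from 0.298 ± 0.0993 to 16.8 ± 1.21 CPM and from 0.212 ± 0.103 to 16.1 ± 0.761 CPM, and Nkx3-2, a homeobox factor downstream of them, from 0.113 ± 0.107 to 16.2 ± 0.485 CPM. Foxc1 and Foxc2, forkhead factors of somites, rose by 4.70 and 4.38. The members that fell were Uncx, a factor of the caudal part of the somite (-2.69 ± 0.22), and Tcf15, a factor of epithelial somites, which moved from 14, 14.6 and 13.7 to 9.57, 11 and 9.68 CPM. In the broader list of mesenchymal transcription factors 16 of 31 rose and 5 fell at least 2-fold, against 23.3% and 15.7% of all genes. Dlx2, Dlx5 and Dlx6, homeobox factors of skeletal mesenchyme, rose from the counting floor. Dlx5 had 0.0479, 0 and 0.108 CPM in D6 PM and 59, 59.6 and 57.9 CPM in D10 AGN, at least 395-fold higher, and Dlx2 and Dlx6 were at least 64.6-fold and 21.8-fold higher. Dlx1 rose by 5.71 on the log2 scale, and Dlx3 had 0.722 ± 0.152 CPM in D6 PM and 0.954 ± 0.21 CPM in D10 AGN and did not pass (adjusted p = 0.28, edgeR). Nfia, Nfix and Nfic, of the nuclear factor I family, rose by 4.55, 4.52 and 2.99. Msx1 and Msx2, homeobox targets of BMP, fell by 3.05 and 1.85, and Tbx3, a T-box repressor, by 3.19. Erg, an ETS factor of articular cartilage and endothelium picked after its values were seen, rose from 0.248 ± 0.0954 to 133 ± 0.88 CPM.

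**Figure D2:**
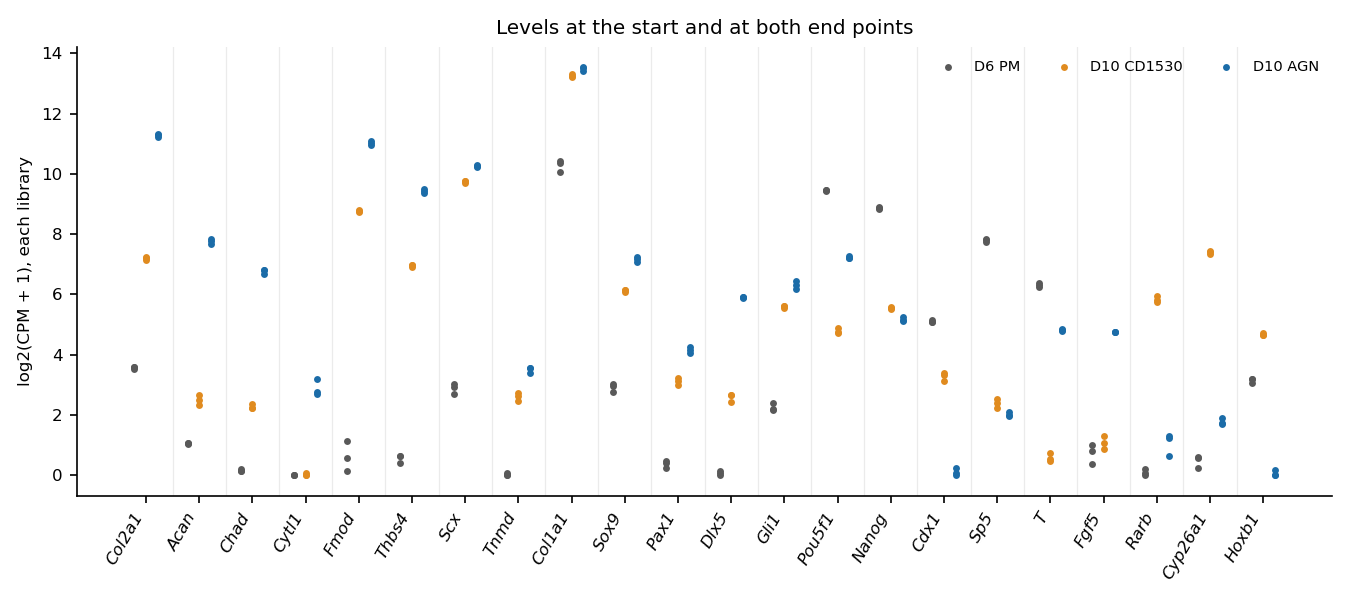
Levels of 22 genes as log2(CPM + 1) in each library, for D6 PM (grey), D10 CD1530 (orange) and D10 AGN (blue), 3 libraries each. Replicates lie close together, Col2a1 and Acan stand highest in D10 AGN, and Rarb, Cyp26a1 and Hoxb1 stand highest in D10 CD1530.

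Hox genes of paralogue groups 1 to 5 rose more often than genes at large, and those of groups 6 to 13 less often. Of 14 analysed genes of groups 1 to 5, 10 rose and 4 fell (median log2 fold change 1.75). Of 24 genes of groups 6 to 13, 3 rose and 12 fell (median -0.62). These are calls by adjusted p alone, which marked 41.6% of all genes as higher and 40.4% as lower. The share of falls in groups 6 to 13 was thus not far from that of all genes. Hoxa2 and Hoxa3 rose by 3.22 and 3.21, and Hoxb2 to Hoxb5 by 2.37, 2.65, 2.65 and 2.33. Hoxb1 went the other way. This gene, a direct retinoid target, had 7.37, 8.08 and 8.13 CPM in D6 PM and 0, 0.12 and 0 CPM in D10 AGN, at least 43.2-fold lower. None of the analysed Hoxc genes passed as higher. Hoxc4 fell by 1.95 and Hoxc5 by 1.70. Among posterior genes Hoxa9 fell by 2.06 and Hoxc11 by 2.04, while Hoxa13, Hoxd12 and Hoxd8 rose, by 2.91, 1.98 and 1.05. The summed level of the 38 analysed Hox genes was low, 127.9 to 138.0 CPM in D6 PM and 175.6 to 182.6 CPM in D10 AGN. The Hox cofactor gene Meis1 rose by 3.15, whereas Meis2 had 13.5 ± 1.88 CPM in D6 PM and 9.71 ± 1.14 CPM in D10 AGN.

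Tailbud and presomitic genes fell in most cases but not in all. Of 23 analysed members 15 fell and 2 rose at least 2-fold, with a median log2 fold change of -1.89 (at least 2-fold lower, 15.7% of all genes). The caudal homeobox genes Cdx1 and Cdx2, which drive posterior axis growth, stood at 32.7, 32.8 and 34.7 CPM and 20.7, 25 and 22.6 CPM in D6 PM. In D10 AGN they had at most 3 counts in each library, at least 183-fold and 125-fold lower. Msgn1 and Tbx6, the factors of presomitic mesoderm, were at least 18.6-fold lower and 25.9-fold lower, and Nkx1-2, a marker of neuromesodermal progenitors, fell by 5.19 on the log2 scale. T fell from 74.9, 79.2 and 82.9 to 27.7, 27.1 and 26.6 CPM (log2 fold change -1.54 ± 0.06). For Eomes, a T-box factor of the streak, the levels were 11.1, 10.6 and 11 CPM and 11.5, 10.4 and 11 CPM, and for Fgf8 6.46, 6.56 and 6.73 CPM and 5.81, 6.38 and 7.37 CPM. Both pairs of groups overlapped and neither passed (adjusted p = 0.97 and 0.94, edgeR). Evx1, a homeobox factor of the streak, rose from 7.41 ± 1.38 to 28.7 ± 1.31 CPM, and Rspo3, a secreted enhancer of Wnt signalling, from 5.91 ± 0.142 to 40.02 ± 3.69 CPM.

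Pluripotency genes fell, with exceptions among those of the epiblast. Of 24 members 19 fell and 3 rose at least 2-fold (median -2.21), and the sum of the list went from 6832 to 6910.5 CPM in D6 PM to between 1541 and 1577 CPM in D10 AGN. Pou5f1 stood at 701, 709 and 693 CPM and fell to 153, 148 and 147 CPM, a log2 fold change of -2.23 ± 0.05. Nanog fell from 466 ± 7.61 to 35.2 ± 1.66 CPM and Sox2, which is also a neural factor, from 536 ± 6.44 to 49.2 ± 1.2 CPM. The largest falls of the list were those of Nr5a2, by 5.68, Tfcp2l1 by 5.16, Esrrb by 4.18 and Zfp42 by 3.89 on the log2 scale, all genes of the naive state, of which Klf2 and Klf4 fell by 2.46 and 1.15. Tdh, the threonine dehydrogenase of mouse stem cells, and Prdm14, a repressor that guards the naive state, both picked after their values were seen, fell by 4.87 and 5.00. The 3 members that rose at least 2-fold were Fgf5, Otx2 and Pou3f1, which mark the primed, post-implantation epiblast, while Nodal, Tdgf1 and Utf1, also expressed in the epiblast, fell by 2.12, 1.75 and 1.32. Fgf5 had 0.287, 0.756 and 1.02 CPM in D6 PM and 25.8, 25.7 and 26.1 CPM in D10 AGN (log2 fold change 5.24 ± 0.16, adjusted p = 2.7e-29, edgeR). Otx2, a homeobox factor of epiblast and anterior tissue, rose from 8.18 ± 1.16 to 41.3 ± 2.8 CPM and Pou3f1 from 5.07 ± 0.879 to 45.3 ± 2.5 CPM. Dnmt3b, a de novo DNA methyltransferase, was nearly level, with 334, 330.0 and 334 CPM in D6 PM and 356, 348 and 353 CPM in D10 AGN (log2 fold change 0.08 ± 0.04, adjusted p = 0.042, edgeR), and the sign turned when libraries were scaled by size alone. Whether these counts came from a few cells of another state was not tested.

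Among signalling genes, most hedgehog and TGF-beta genes rose and several targets of Wnt fell. Gli1, the transcriptional readout of hedgehog signalling, went from 3.49, 3.59 and 4.26 to 78.3, 86.8 and 71.9 CPM (log2 fold change 4.39 ± 0.09), Hhip, a secreted decoy that the pathway induces, from 0.356 ± 0.226 to 129.8 ± 2.02 CPM, and the receptor gene Ptch1, also a target, from 86.7 ± 5.59 to 447 ± 19.7 CPM. The coreceptor Boc rose by 5.01 and the forkhead target Foxf2 by 6.75. In all, 8 of 14 hedgehog genes rose and none fell at least 2-fold. Of 22 TGF-beta genes 15 rose and none fell at least 2-fold (median 1.75). Both lists stand against 23.3% of all genes higher and 15.7% lower at least 2-fold. Tgfbi rose by 5.59, the feedback inhibitor Pmepa1 by 4.30, the ligand gene Tgfb3 by 5.33 and the latent binding protein gene Ltbp1 by 4.65. Smad7 and Tgif1, inhibitors of the same pathway, fell by 0.54 and 0.90.

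Wnt genes moved both ways. Of 22, 9 rose and 10 fell at least 2-fold, against 23.3% and 15.7% of all genes. The feedback target Axin2 stood at 165, 154 and 168 CPM in D6 PM and 11.3, 10.2 and 10.04 CPM in D10 AGN (log2 fold change -3.95 ± 0.08, adjusted p = 1.1e-35, edgeR). Sp5, a zinc finger target, fell from 221 ± 8.14 to 3.09 ± 0.207 CPM, and Notum, a lipase that inactivates Wnt ligands, by 3.64. The nuclear effectors Lef1 and Tcf7 fell by 1.99 and 1.98. Several members of families that include secreted antagonists rose, Dkk2 and Dkk3 by 5.37 and 5.92, Sfrp1 by 2.21 and Wif1 by 2.13. Not every member of these families is an established antagonist. CHIR was given before D6, and its part in these values cannot be told apart from the other changes.

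BMP and FGF genes moved upward in most cases. Of 19 BMP genes 11 rose and none fell at least 2-fold (all genes, 23.3% and 15.7%). Chrdl1, a secreted BMP antagonist, was at 0.335, 0.142 and 0.215 CPM in D6 PM and 336, 314 and 316 CPM in D10 AGN (log2 fold change 10.41 ± 0.11, adjusted p = 1.1e-45, edgeR). The ligand genes Bmp4, Bmp5 and Bmp6 rose by 3.52, 5.15 and 3.19 and the target Id1 by 2.49, while the antagonist Grem1 fell by 0.66. Of 20 FGF genes 10 rose and 5 fell at least 2-fold, against the same shares of all genes. The receptor gene Fgfr2 rose by 3.72 and the ligand gene Fgf18, expressed around cartilage, by 4.69. Dusp6, a phosphatase induced by the pathway, rose by 1.87, but the ETS target Etv5 fell by 2.03 and Spry2 by 1.21. Fgf4, a ligand of pluripotent cells, fell by 1.72.

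Retinoid genes rose more often than genes at large and fell about as often. Of 23 analysed members 10 rose and 4 fell at least 2-fold, against 23.3% and 15.7% of all genes. Aldh1a3, which makes retinoic acid, rose from 2.25, 1.89 and 2.05 to 122, 127 and 125 CPM (log2 fold change 5.91 ± 0.08), while Aldh1a2, the synthetic enzyme of paraxial mesoderm, fell by 1.51. The receptor genes Rara, Rarg and Rxra rose by 1.06, 1.49 and 1.69, and the binding protein gene Crabp2 by 3.63. Cyp26a1 had 0.191, 0.52 and 0.485 CPM in D6 PM and 2.75, 2.35 and 2.26 CPM in D10 AGN, and Rarb 0.144, 0.0472 and 0 CPM and 0.563, 1.45 and 1.37 CPM. The libraries did not overlap for either gene. Ncor1, a corepressor of unliganded receptors, had 239.6, 203 and 238 CPM in D6 PM and 209.9, 217 and 225 CPM in D10 AGN, overlapping groups (adjusted p = 0.64, edgeR).

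Cell cycle genes mostly fell, by small amounts. Of 26 proliferation genes 22 were lower, 8 of them at least 2-fold, with a median of -0.55. Among all genes 40.4% were lower, and 15.7% at least 2-fold. The replicative helicase genes Mcm7, Mcm3 and Mcm5 fell by 1.44, 1.41 and 1.37, and Pcna, the polymerase clamp, by 1.28. Mybl2, a transcription factor of the cell cycle, fell most, from 442, 429 and 443 to 72.8, 76.9 and 77.7 CPM. The mitotic kinase genes Cdk1, Plk1 and Aurkb had log2 fold changes of only -0.15 ± 0.04, -0.18 ± 0.04 and -0.29 ± 0.05. Mki67, the usual marker of cycling cells, was higher, at 240.2, 198 and 223 CPM in D6 PM and 296, 333 and 310.1 CPM in D10 AGN (log2 fold change 0.51 ± 0.14, adjusted p = 0.0027, edgeR), as were Ccne2 and Foxm1. Mki67 and Cdk1 thus moved in opposite directions. Among brakes and D cyclins 7 of 13 rose at least 2-fold (23.3% of all genes). The CDK inhibitor genes Cdkn2c, Cdkn1c and Cdkn2b rose by 3.47, 2.29 and 2.28 and the cyclin gene Ccnd2 by 2.14. Mycn fell by 2.82, while Myc rose by 1.56.

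Contractile and most imprinted genes rose, and adhesion genes moved both ways. Cdh1, the epithelial cadherin, fell from 431 ± 15.4 to 173 ± 2.17 CPM and Epcam by 1.44, whereas the mesenchymal cadherin Cdh11 rose from 54.5 ± 3.86 to 1289.5 ± 1.89 CPM and the growth factor receptor genes Pdgfra and Pdgfrb by 3.47 and 3.24. Cldn6 and Cldn7, tight junction genes, did not pass (adjusted p = 0.062 and 0.051, edgeR). All 11 contractile genes rose, 10 at least 2-fold (median 4.78). Acta2, smooth muscle actin, went from 9.71, 10.6 and 9.1 to 646, 642 and 654 CPM and Actg2 was at least 525-fold higher, while Tagln reached only 4.69 ± 0.526 CPM. Of 17 imprinted growth genes 15 rose and 2 fell at least 2-fold (median 2.34). Igf2, a fetal growth factor, rose from 7.13, 4.77 and 6.84 to 1615, 1439 and 1469.8 CPM, a log2 fold change of 7.92 ± 0.20, and the adjacent noncoding RNA gene H19 from 74.7, 75.4 and 69.1 to 698, 682 and 655 CPM. Zim1, Plagl1, Mest and Peg3 rose by 7.23, 4.17, 4.10 and 3.78. The exceptions were Phlda2 and Peg10, which fell by 2.29 and 2.23.

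Markers of other cell types were low at both ends with some exceptions. The endothelial list of 9 genes summed to 129.6 to 138.5 CPM in D6 PM and 222.8 to 239.3 CPM in D10 AGN, with 6 members higher at least 2-fold. Cdh5, the cadherin of endothelium, rose from 2.5 ± 0.4 to 76 ± 3.48 CPM, but Pecam1, which stem cells also express, fell by 1.69. Endoderm markers summed to 7.2 to 8.7 and 50.1 to 54.6 CPM. Foxa2, Foxa1 and Cer1 rose by 4.27, 3.27 and 4.63, and Afp, Apoa1, Apob and Ttr had at most 0.283 CPM in any of the 6 libraries. Blood markers summed to 55.9 to 65.2 and 68.5 to 74.9 CPM. Yet of these 9 genes 5 fell and 2 rose at least 2-fold (median -1.26), against 15.7% and 23.3% of all genes. Runx1, which mesenchyme also expresses, rose by 2.59, from 10 ± 0.708 to 60.6 ± 2.03 CPM, and the embryonic globin gene Hba-x fell by 3.12. Neural markers summed to 180.4 to 194.1 and 480.4 to 520.7 CPM, most of the second sum from Nes (428 ± 18.9 CPM), which many progenitors express. Of these 10 genes 4 rose and 3 fell at least 2-fold (median -0.33), against 23.3% and 15.7% of all genes. Stmn2 fell from 82.4 ± 3.6 to 18.1 ± 0.941 CPM and Tubb3 from 49 ± 1.5 to 13.3 ± 0.831 CPM. The neural factor Sox1 had 0.5, 0.422 and 0.178 CPM in D10 AGN. Skeletal muscle and cardiac lists summed to at most 15.5 and 7.7 CPM in any of the 6 libraries. The part of other cell types in the results above was not tested.

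Genes used as references passed the test about as often as all genes (82.0%). Of 15, 9 were lower and 4 higher in D10 AGN, and of 17 glycolysis genes 9 were lower and 4 higher, with 1 change of at least 2-fold. Actb differed by 0.46 ± 0.04, Hprt by -1.78 ± 0.05, Gusb by 1.37 ± 0.04 and B2m by 1.35 ± 0.07 on the log2 scale, while Pgk1 and Tfrc did not pass (adjusted p = 0.46 and 0.24, edgeR). Gapdh was listed at only 37.6 ± 3.54 CPM in D6 PM and 23.4 ± 2.4 CPM in D10 AGN, and Ppia at 23.4 ± 1.98 and 14.4 ± 1.92 CPM. Both genes have processed pseudogenes, and the table held 1811 genes of that class, so that counts for them are uncertain. Processed pseudogenes as a class had a median of -0.57 and protein-coding genes of 0.10. Of 96 genes for ribosomal proteins, a family picked after its values were seen, 89 were lower (median -0.82), and their share of all counts was 3.29% to 3.58% in D6 PM and 1.65% to 1.74% in D10 AGN. All 6 chaperonin genes of the symbol family examined fell, with a median of -1.12. With protein-coding genes split into 5 bins of genomic span, the bin of the longest had a median of 0.55, and the others had medians from -0.02 to 0.05.

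The 10 genes with the largest gain in CPM were Col1a1, Col1a2, Postn, Fn1, Col3a1, Igfbp5, Sparc, Fstl1, Serpinh1 and Bgn. Of these, Serpinh1 encodes a chaperone of the endoplasmic reticulum and the others encode secreted proteins. Together their counts came to 0.516% of the TMM-scaled library total in D6 PM and 5.68% in D10 AGN. With factors of 0.902 to 0.912 the scaled total of D10 AGN is smaller than its count total. Shares of the counts themselves are therefore lower there than the percentages given. Igfbp5, which binds insulin-like growth factors, rose from 44.8, 35.1 and 33.5 to 4061, 4131 and 4007 CPM. The 10 with the largest loss were Eef1a1, Hsp90ab1, Eef2, mt-Co1, Pkm, Hsp90aa1, Rpl4, Ncl, Pabpc1 and Hspa8. Together they went from 4.83% to 2.71% of the TMM-scaled total. Among them mt-Co1, of the mitochondrial genome, varied most between D6 PM libraries, at 4992, 6288 and 7519 CPM, against 4697, 4495 and 4138 CPM in D10 AGN. By fold rather than counts, the 10 largest rises included, beside genes described above, Mgp, an inhibitor of calcification (from 0.342 ± 0.132 to 441 ± 5.07 CPM), Ogn, a small proteoglycan (at least 714-fold), and Mmrn1, a secreted multimerin (at least 56-fold). The 10 largest falls included Khdc1a and Khdc1c, genes of early embryos and oocytes that had no count in D10 AGN (at least 74-fold and 65.3-fold lower). They also included Krt23, a keratin, Gbx2, a homeobox factor of stem cells and brain, Slc30a2, a zinc transporter, Dmgdh, an enzyme of choline breakdown, and Cnga4, a channel subunit.

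**Figure D3:**
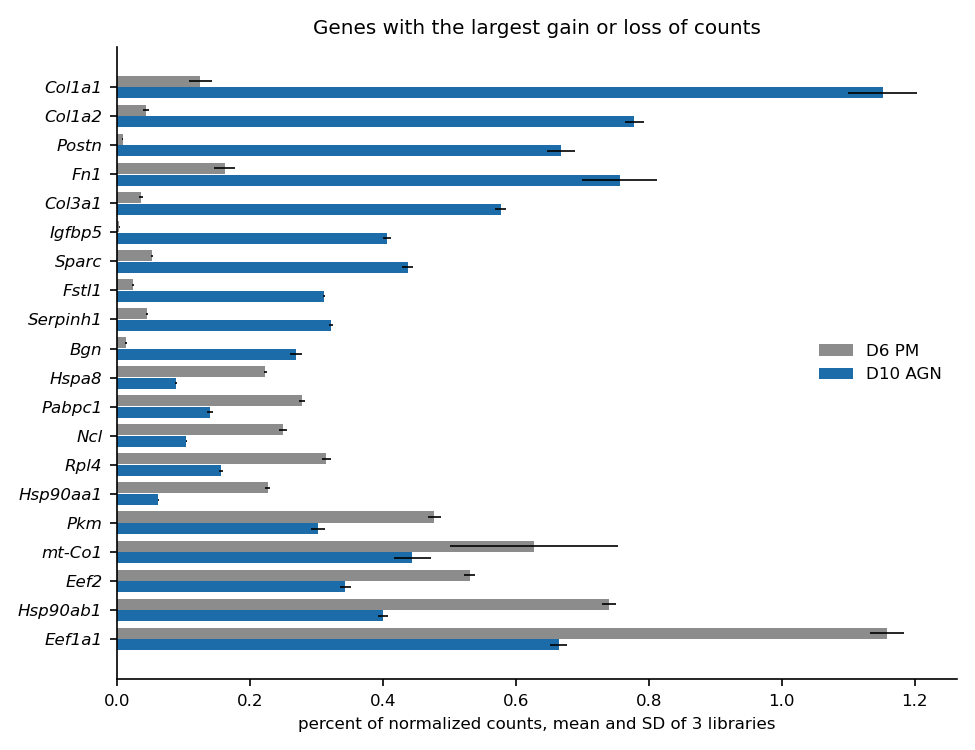
Counts of the 10 genes with the largest gain and the 10 with the largest loss, in D6 PM (grey) and D10 AGN (blue). Values are percent of the TMM-scaled library total (mean with SD of 3 libraries), which is not the sum of the counts. Col1a1 has the largest gain and Eef1a1 the largest loss.

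The AGN samples between the end points show when the net change was passed. Of 2000 genes that rose at least 4-fold, 656 (32.8%) had first passed the midpoint of their net change on the log2(CPM + 1) scale by D6.25, 6 hours into induction, and 1478 (73.9%) by D7.5. On linear CPM the shares were 18.6% and 43.6%. Of 852 genes that fell at least 4-fold, 230 (27.0%) had passed it by D6.25 and 479 (56.2%) by D7.5, or 59.0% and 85.1% on linear CPM. The order of rising and falling genes therefore depends on the scale. Sox9 was among the early genes, at 91.6 ± 3.13 CPM by D6.25, and Scx stood at 120.2 ± 1.1 CPM then with a mean higher at D8.5 (1701 ± 29.96 CPM) than at D10. Col2a1 had 504 ± 16.8 CPM at D6.75 and 936 ± 19.97 CPM at D8.5, Acan only 29 ± 0.395 CPM at D8.5, and Cnmd 0.367 ± 0.21 CPM at D8.5, so that most of the rise in CPM of these 3 genes came between D8.5 and D10. On the log2 scale Col2a1 had passed its midpoint by D6.75, and Hapln1, Fbn2, Tnc and Tgfbi had by D6.25, as Sox9 and Scx had. Among losses Axin2 had fallen to 37.4 ± 1.59 CPM by D6.25, Cdx2 to 6.02 ± 0.2 CPM and Nanog to 210 ± 2.41 CPM, from 466 ± 7.61 CPM in D6 PM. On the log2 scale Axin2 had passed its midpoint by D6.25, Cdx2 by D6.75 and Nanog by D8.5 (73.3 ± 2.19 CPM).

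A comparison of end points does not show what rose and fell again between them. Of the 2000 genes that rose at least 4-fold, 74 (3.7%) were higher by at least 1 on the log2(CPM + 1) scale at an intermediate time than at D10. The following genes, picked after their values were seen, moved away from and back toward their end levels. Cer1, a secreted Nodal antagonist of anterior endoderm, was at 222 ± 10.2 CPM at D6.75, against 0.412 ± 0.195 CPM in D6 PM and 10.4 ± 1.28 CPM in D10 AGN. Sox17, a factor of endoderm and endothelium, was at 80.9 ± 1.16 CPM at D6.25 and 2.67 ± 0.797 CPM at D10, and Lhx1, a homeobox factor of the gastrula organizer, at 134 ± 2.78 and 5.84 ± 0.578 CPM. Eomes, level between the end points, was at 83.6 ± 1.7 CPM at D6.25. Cyp26a1 reached 71.5 ± 1.11 CPM at D6.75 in the presence of the inverse agonist and returned to 2.45 ± 0.263 CPM. Dnmt3b, nearly level in the net, fell to 206 ± 6.15 CPM at D6.25 and was at 874 ± 32.9 CPM at D8.5. T went down to 9.31 ± 0.412 CPM at D8.5 and was at 27.1 ± 0.542 CPM at D10.

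**Figure D4:**
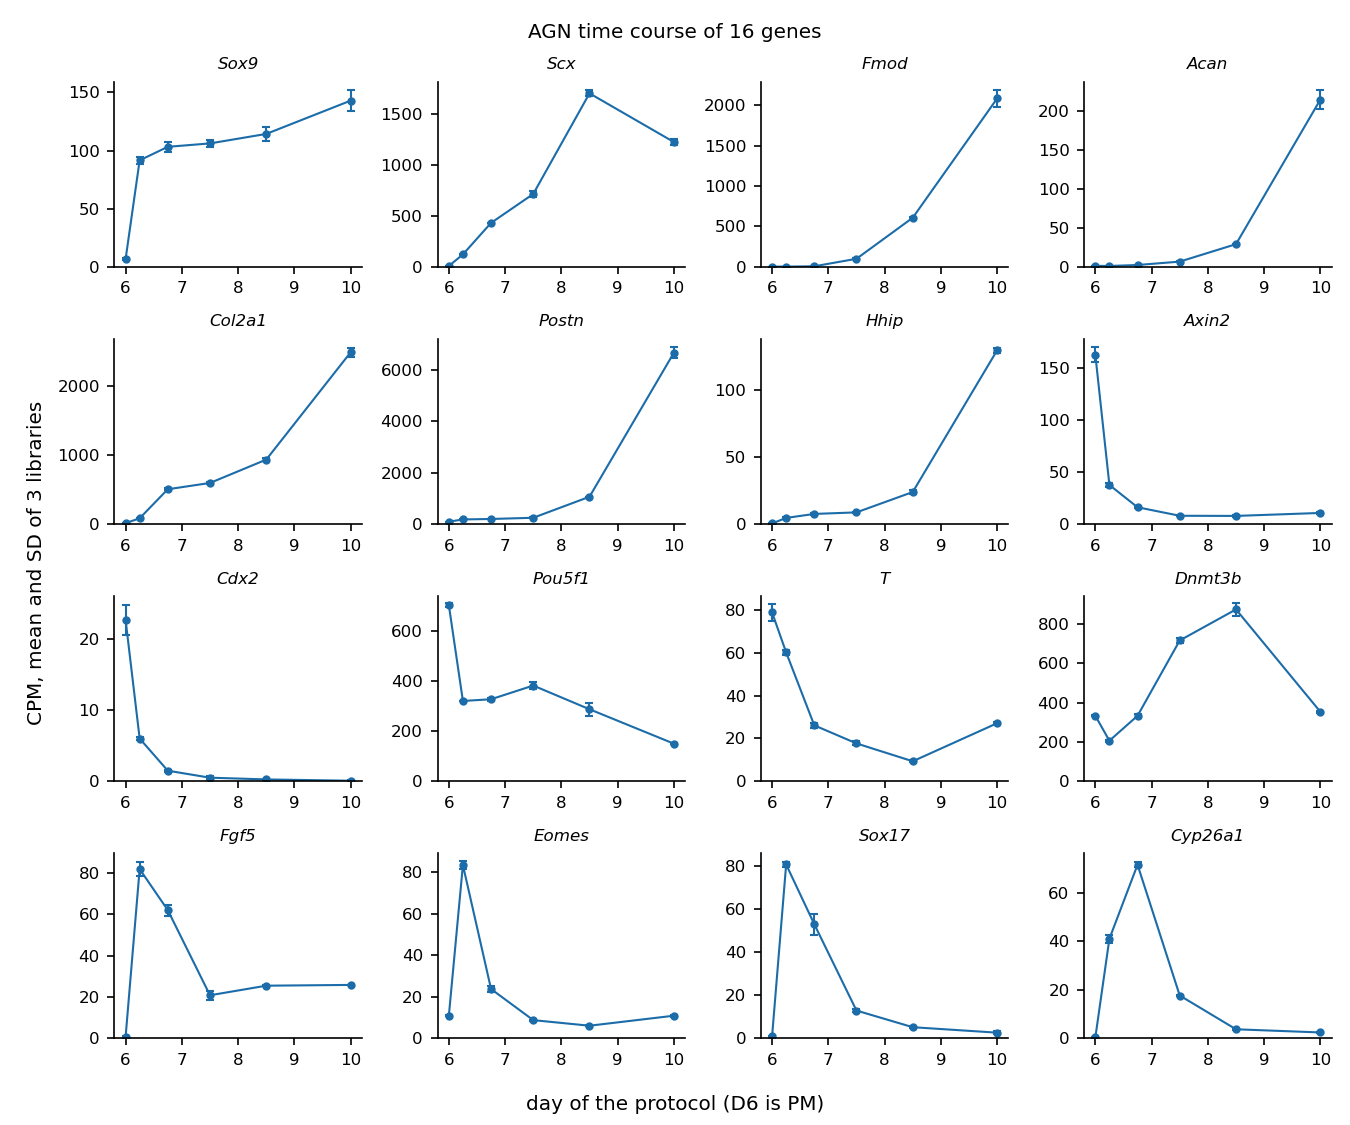
AGN time course of 16 genes from D6 PM to D10 (CPM, mean and SD of 3 libraries, each panel with its own axis from 0). Fgf5, Eomes, Sox17 and Cyp26a1 peak at D6.25 or D6.75 and are lower at D10, whereas Acan, Postn and Hhip are highest at D10.

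Which parts of the net change differed from the net change of the other arm was tested as D10 AGN against D10 CD1530, since both arms share the D6 PM libraries. In that test 7980 genes (46.6%) passed, 4102 higher (24.0%) and 3878 lower (22.7%) in D10 AGN, and 812 (4.74%) and 1031 (6.02%) did so at least 2-fold. All 19 cartilage matrix genes were higher in D10 AGN, 17 of them at least 2-fold, with a median difference of 4.10. Acan stood at 203, 227 and 216 CPM in D10 AGN and 3.99, 5.34 and 4.67 CPM in D10 CD1530, a log2 difference of 5.53 ± 0.09 (adjusted p = 1.3e-37, edgeR). Cytl1 and Clec3a, at the floor in D6 PM, stood at 0.0183 ± 0.0318 and 0.144 ± 0.0852 CPM in D10 CD1530, log2 differences of 8.09 ± 0.54 and 6.81 ± 0.29. Of 14 tendon genes 8 were higher in D10 AGN, 6 of them at least 2-fold, and 4 were lower, 1 of them at least 2-fold, with a median difference of 0.59. Their summed level was 17633 to 18491 CPM in D10 AGN and 9793.6 to 9870.5 CPM in D10 CD1530. Of 13 fibrillar matrix genes 6 were higher, none of them at least 2-fold, and 2 lower. Scx was 1223 ± 27.8 CPM in D10 AGN and 858 ± 17.4 CPM in D10 CD1530, a log2 difference of 0.51 ± 0.04. For Mkx the levels were 37.2 ± 3.14 and 36.7 ± 2.15 CPM, a difference of 0.02 ± 0.08 that did not pass (adjusted p = 0.87, edgeR), and for Col1a1 the difference was 0.24 ± 0.10 (adjusted p = 0.053, edgeR). Contractile genes had a median difference of -0.12, and none was at least 2-fold higher in D10 AGN.

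Many genes of the retinoid and Hox lists stood lower in D10 AGN than in D10 CD1530. Of 23 retinoid genes 11 were at least 2-fold lower and 1 higher, and of 38 Hox genes 18 lower and 1 higher. Among all genes 6.02% were lower and 4.74% higher at least 2-fold. The retinoid list held retinoid targets beside genes of the pathway, and Hoxb1 stood in both lists. Cyp26a1 and Rarb, whose promoters are printed above, differed by -6.11 ± 0.08 and -5.63 ± 0.14, Hoxb1 by -9.05 ± 0.31, Cdx1 by -6.66 ± 0.31 and Sox1, a neural factor, by -5.43 ± 0.24 on the log2 scale. These were the 5 largest negative differences among the 174 genes of the anchor list and the leading list members. The 5 largest positive were Cytl1, Clec3a, Cer1 (5.81 ± 0.24), T (5.74 ± 0.14) and Acan. For Cytl1 in D10 CD1530 and for Hoxb1 and Cdx1 in D10 AGN no library had more than 3 counts, so that these fitted differences depend on the small count edgeR adds and are not bounds. T thus fell in both arms but to different levels, 27.1 ± 0.542 CPM in D10 AGN and 0.503 ± 0.14 CPM in D10 CD1530. The primed epiblast genes Fgf5 and Otx2 stood at 1.14 ± 0.312 and 1.07 ± 0.44 CPM in D10 CD1530, below D10 AGN by 4.49 ± 0.14 and 5.28 ± 0.12 on the log2 scale, and Dnmt3b at 31.2 ± 1.34 CPM, by 3.50 ± 0.05. Penk, an opioid peptide precursor picked after its values were seen, rose from 3.14 ± 0.934 CPM in D6 PM to 1132 ± 39.2 CPM in D10 AGN and was at 44.7 ± 2.4 CPM in D10 CD1530.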

How the data were processed

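Gene counts were deposited by the authors as 1 table of raw counts for 33 libraries (11 groups of 3). According to the submitters' processing notes and the study's methods, reads from NEBNext libraries were aligned to GRCm38 with STAR and counted with featureCounts. The annotation release, strandedness and the treatment of multi-mapping reads are not given in the sources used here. Groups came from the labels. All 17120 genes were tested, since the table was already restricted to expressed genes and the low-count filter removed 0. Counts were fitted in R 4.3.3 with edgeR 4.0.16 (TMM, robust quasi-likelihood F test, 1 mean per group, no covariate, all 33 libraries in 1 fit), with Benjamini-Hochberg adjustment over all genes. The call threshold was an adjusted p under 0.05, and the second rule added a log2 fold change of 1 or more in size. SE was taken as the absolute log2 fold change over the square root of F. Genes with at most 3 counts in every library of a group were set to 3 counts per library (0.149 CPM in D6 PM and 0.182 CPM in D10 AGN) and given as bounds. Such limits cover counting error only.

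Totals ranged from 17116084 to 38120841 counts over all libraries, and the biological coefficient of variation was 4.68%. No replicates of the compared groups agreed within sampling noise. No pairing by replicate number was seen between D6 PM and D10 AGN, where the correlations of deviations were -0.052, -0.086 and 0.019. Over all groups the correlations for the same number ran from -0.375 to 0.337, with a median of 0.002. With 3 libraries a group these values cannot decide whether samples of 1 number shared an origin. The fit was tested on simulated data of 17120 genes for D10 AGN against D6 PM, where it recovered 41 of 50 genes changed by 0.5 on the log2 scale, 50 of 50 at each of 1, 2 and 3, and called 3 of 16920 unchanged genes. The changed genes were few, well counted and split evenly by direction. The simulation therefore did not test the scaling under a change as wide as that of the data, where 82.0% of genes passed.

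The gene lists and their members were chosen with earlier results of these data known, so lists are described by counts and medians and no set test was made. Genes were named as anchors, as the 3 largest called changes in each direction of a list or for their role, as the 10 largest rises and falls by fold (mean of at least 50 counts, no overlap, predicted genes left out), as the 10 largest gains and losses in CPM, and as the 5 largest differences between D10 AGN and D10 CD1530 in each direction. Genes named outside this rule are given as picked after their values were seen. Gene positions are those of GENCODE for GRCm38. Alternatives covered the normalization, filter, test, sequencing depth, libraries fitted, replicate number as a block and each library left out. Promoters came from RefSeq (GRCm38.p6). List members without a row in the table were not analysed here, and values of some genes are not reported here.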

Additional observations from a re-analysis of the deposited data

Results flagged for a closer look

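For 6 of the named genes the net changes of both arms ran in opposite directions, each passing the test with at least 2-fold, and the difference between the arms also passed (edgeR quasi-likelihood F test of D10 AGN against D10 CD1530, Benjamini-Hochberg adjusted). Otx2 rose with AGN by 2.34 and fell with CD1530 by 2.94 on the log2 scale, a difference of 5.28 ± 0.12 (adjusted p = 8.6e-32). Cer1 rose by 4.63 and fell by 1.17, a difference of 5.81 ± 0.24 (adjusted p = 2.6e-23). The fall of Cer1 lay between very low levels, 0.412 CPM in D6 PM and 0.18 CPM in D10 CD1530, and its level in D10 AGN was 10.4 CPM. Evx1 rose by 1.95 and fell by 1.19, a difference of 3.14 ± 0.12 (adjusted p = 4.9e-24). Of the Hox genes, Hoxb1 fell with AGN and rose by 1.65 with CD1530, a difference of -9.05 (adjusted p = 4.8e-26). Hoxc4 fell by 1.95 and rose by 2.10, a difference of -4.05 ± 0.16 (adjusted p = 1.2e-23). Hoxc5 fell by 1.70 and rose by 1.97, a difference of -3.66 ± 0.15 (adjusted p = 4.9e-23). For these 6 genes the 3 libraries of D10 AGN did not overlap the 3 of D6 PM. Overlap between D10 CD1530 and D6 PM libraries was not computed. Both net changes share the same D6 PM libraries.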

How the results depend on the processing

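Counts of called genes stayed within 1.5 times under every alternative run, from 13611 to 14212 in D10 AGN against D6 PM (13611 to 13735 with 1 library left out), and 6437 to 6938 genes changed at least 2-fold, while a test against a minimum of 2-fold (glmTreat) called 5348. Scaling by library size alone gave 6345 higher and 7867 lower calls in place of 7115 and 6923, lowered list medians by 0.15, turned that of the hypertrophic and bone list from 0.08 to -0.073, and kept 6226 of the 6669 genes changed at least 2-fold. It also reversed Dnmt3b (-0.065), Egr1 (-0.096), Eomes (-0.146) and Ibsp (-0.073). Thinning to the smallest total reversed Eomes (-0.013), as did fitting the compared libraries alone (-0.00804). Of these, Dnmt3b was the one called. Without 1 replicate, Egr1 ranged from -0.032 to 0.132, Eomes from -0.037 to 0.042, Fgf8 from -0.109 to 0.063 and Ibsp from -0.022 to 0.231. Dnmt3b lost its call without any of 5 of the 6 libraries and Col5a3 without any of 4, and both lost it when the compared libraries alone were fitted. On linear CPM in place of the log2 scale, the share of rising genes past their midpoint was 18.6% by D6.25 and 43.6% by D7.5 (main 32.8% and 73.9%), and that of falling genes 59.0% and 85.1% (main 27.0% and 56.2%). The midpoint itself differs between the scales by construction.

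With replicate number as a block 14008 genes passed, 6665 of them at least 2-fold, and 7914 passed between D10 AGN and D10 CD1530. By their labels the samples of a block share only a number, and the block changed no call of a named gene.

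Depth limits the low genes, since a gene with at most 3 counts in each library gives a bound rather than a fold. The data are 1 sample of unsorted culture per library, so levels average over cell states.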

Other observations

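Some gene groups outside the lists also moved, and they were picked after their values were seen. Semaphorins, secreted and membrane guidance proteins, rose at least 2-fold in 13 of 20 genes and fell in 1 (median log2 fold change 1.75), against 23.3% and 15.7% of all genes. Mitochondrial ribosomal protein genes were lower in 55 of 75 and higher in 2, with a median of -0.48, and genes of the respiratory chain and ATP synthase were lower in 46 of 84 and higher in 14, with a median of -0.22. Asns, which makes asparagine, stood at 994, 1025 and 1008 CPM in D6 PM and 114, 104 and 107 CPM in D10 AGN (log2 fold change -3.22 ± 0.04). Slc2a3, a glucose transporter, went from 1491 ± 37.7 to 337 ± 3.91 CPM and Apoe, a lipid carrier, from 1307 ± 48.9 to 309.6 ± 1.48 CPM. Trim28, a corepressor of retroelements, fell from 1917, 1946 and 1910.3 to 789, 774 and 761 CPM. Col4a1 and Col4a2, the basement membrane collagens, had log2 fold changes of 3.22 ± 0.07 and 3.58 ± 0.08. Cilp, a protein of the cartilage intermediate layer, and Col8a1, a short-chain collagen, reached 84.3 ± 2.66 and 833 ± 23.7 CPM in D10 AGN from 0.117 ± 0.0615 and 1.5 ± 0.0519 CPM in D6 PM.

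Of 6 markers of kidney and intermediate mesoderm 3 rose and 2 fell at least 2-fold, with summed levels of 87.5 to 94.3 CPM in D6 PM and 48.0 to 55.6 CPM in D10 AGN. The 4 analysed epidermal markers summed to 83.4 to 90.1 and 33.2 to 39.9 CPM. The median log2 fold change was 0.77 for 169 antisense genes and -0.14 for 272 intergenic noncoding RNA genes. Whether counting used strand is not stated, so reads of an antisense gene and its partner cannot be told apart.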
